A study of Mus musculus with 6 samples.

Results

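Six-family genes of the embryonic mouse retina and the noncoding transcripts of the Six3 locus were followed across 6 RNA sequencing libraries. The 7 members are the homeobox genes Six2, Six3, Six4, Six5 and Six6 and the antisense transcripts Six3os1 and Gm28528, out of 55487 counted genes. They were taken by name, as Six-family genes and antisense transcripts of the locus whose sequence drives the Cre, and selected on their CPM differences between the labelled genotypes, which were already known. Those differences are therefore given as a description without a test. The 3 libraries labelled Foxp1 cKO came from embryos with loxP-flanked Foxp1 alleles on both chromosomes and a Cre driven by Six3 sequence (Foxp1 fl/fl, Six3-Cre). The 3 libraries labelled control came from littermates with the same loxP-flanked alleles and no Cre (Foxp1 fl/fl). All were C57BL/6 embryos of embryonic day 16.5 from 1 litter, and each library is 1 animal with both retinas combined. The stretch of Six3 sequence in the Cre construct is not given in the sources used here. The comparison asks how a retina without the forkhead transcription factor Foxp1 differs in gene expression.

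Six-family proteins are transcription factors that join a SIX-type domain, which binds partner proteins, to a DNA-binding homeodomain. With EYA proteins they activate genes, and with Groucho-related TLE proteins or DACH proteins they repress them. In the vertebrate eye Six3 and Six6 are early genes of the retinal field and stay active in retinal progenitors, where Six3 holds back Wnt signalling and Six6 favours proliferation. Six2, Six4 and Six5 are better known from kidney, skeletal muscle and craniofacial mesenchyme. Six3os1 is a long noncoding RNA transcribed away from Six3 on the opposite strand, and it has been reported to modulate Six3 function in the mouse retina.

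The start of Six3 is shown because Gm28528 is read from the opposite strand across it. A link between this sequence and the levels below was not tested. The RefSeq promoter windows (GRCm38.p6, which has the coordinates of mm10) run from 250 bases before to 50 bases after a gene's start, and all are written 5′ to 3′ on the strand of the gene. In the Six3 window, chr17:85620584-85620883 on the plus strand, capitals mark the 94 bases that also lie in the first exon of Gm28528 on the minus strand. The Six3os1 window, chr17:85618347-85618646 on the minus strand, is shown beside it as the other promoter of the locus, without capitals.
Six3: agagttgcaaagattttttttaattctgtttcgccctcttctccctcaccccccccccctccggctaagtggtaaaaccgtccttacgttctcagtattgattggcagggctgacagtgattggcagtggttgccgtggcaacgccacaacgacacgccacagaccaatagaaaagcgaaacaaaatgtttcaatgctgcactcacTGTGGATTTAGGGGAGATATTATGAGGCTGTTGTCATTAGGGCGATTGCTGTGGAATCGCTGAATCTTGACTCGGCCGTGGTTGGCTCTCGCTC
Six3os1: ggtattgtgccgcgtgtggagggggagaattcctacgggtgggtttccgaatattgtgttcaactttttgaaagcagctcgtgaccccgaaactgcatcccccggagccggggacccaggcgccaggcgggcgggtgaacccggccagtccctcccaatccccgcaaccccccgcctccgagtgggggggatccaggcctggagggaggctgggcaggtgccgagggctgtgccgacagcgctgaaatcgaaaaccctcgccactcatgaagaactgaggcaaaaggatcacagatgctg

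The Six3 window held 14 CpG pairs, against 20 in the Six3os1 window. The core of the CCAAT box, searched as CCAAT on both strands, occurred 3 times in the Six3 window and 1 time in the Six3os1 window. Of 32851 promoter windows of the same length, 37.4% held at least 1 match and 3.37% held 3 or more. The homeodomain core TAAT occurred 3 times in the Six3 window and was not found in the Six3os1 window, and 58.0% of all windows held it. The forkhead core TGTTTAC, present in 3.65% of all windows, was not among the letters of any member's window. Windows were matched for 6 of the 7 members, all but Gm28528.

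The libraries held 23707761 to 25714620 counts. Foxp1, the targeted gene, had 1850, 1816 and 1742 counts in cKO-labelled libraries 1, 2 and 3, against 1213, 1019 and 1096 in control-labelled libraries 1, 2 and 3, which is the reverse of what the labels say of a knockout. A count over the whole gene keeps the reads of exons that are not deleted, so such reads would remain in a knockout. The authors' deposited table, also per gene, has Foxp1 lower in cKO, at a log2 fold change of -0.60. Xist and the Y-linked gene Ddx3y went against the labelled sex in the library labelled control 2 (female label, 13 Xist and 802 Ddx3y counts) and in the library labelled cKO 2 (male label, 14143 Xist and no Ddx3y counts). By these 2 genes, cKO-labelled libraries 1, 2 and 3 were female, female and male, the sexes labelled for controls 1, 2 and 3. Control-labelled libraries 1, 2 and 3 were female, male and male, the sexes labelled for cKO 1, 2 and 3. An exchange of the 2 groups of labels would thus match all 6 sex labels and turn the Foxp1 difference round. Whether the labels were exchanged was not tested. Every direction below therefore follows the labels as given, and those between genotypes would be reversed by such an exchange. All 6 libraries held retinal progenitor transcripts, with the summed level of 10 markers at 8075 to 8396 CPM (counts scaled to library size) in the cKO-labelled libraries and 8118 to 8383 CPM in the control-labelled ones.

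Six3 and Six6, the retinal pair of the family, went opposite ways between the labelled genotypes, and both differences were small. Six3 (ENSMUSG00000038805, chromosome 17, 85613608 to 85629302, plus strand, mm10, protein-coding) was at 472, 418 and 404 CPM in cKO-labelled libraries 1, 2 and 3, against 537, 464 and 476 CPM in control-labelled libraries 1, 2 and 3. The library labelled cKO 1 lay above the library labelled control 2, so the groups overlapped. The means were 431 ± 35.5 CPM and 492 ± 39.4 CPM (SD, n = 3 each), a log2 fold change of -0.19 (standard error 0.07). Six6 (ENSMUSG00000021099, chromosome 12, 72939892 to 72944899, plus strand) was at 221, 211 and 200 CPM in the cKO-labelled libraries, against 195, 193 and 196 CPM in the control-labelled ones. Here the groups did not overlap, with the lowest labelled cKO library just above the highest control. The log2 fold change of Six6 was 0.11 with a standard error of 0.05. Within a library, the Six6 count was 46.8% to 50.5% of the Six3 count in the cKO-labelled libraries and 36.3% to 41.6% in the control-labelled ones. In bulk retina, fewer cells with a transcript and less of it per cell cannot be told apart.

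**Figure D1:**
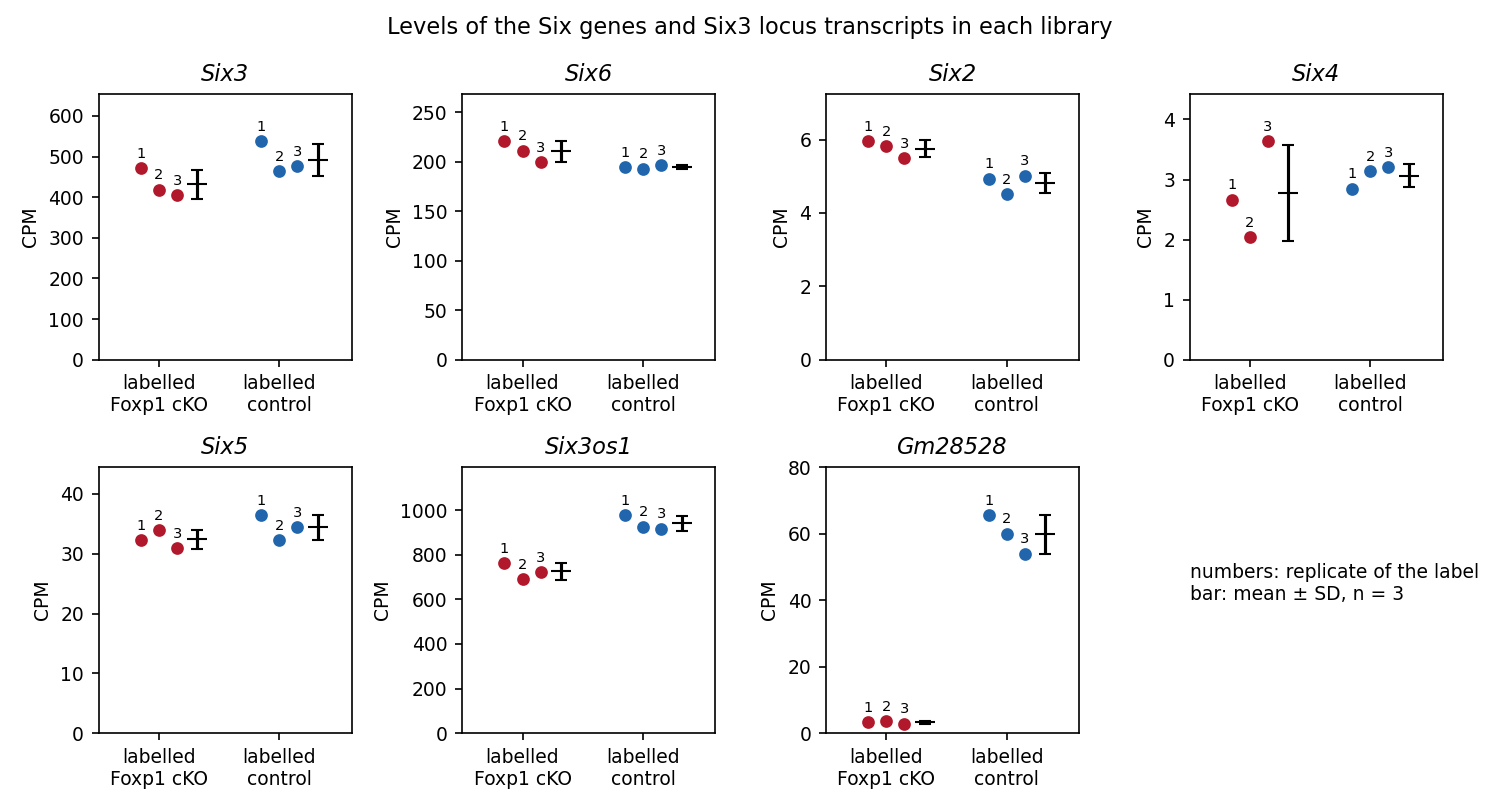
Level of each member in CPM (vertical axes start at 0) in the 3 libraries labelled Foxp1 cKO (red) and the 3 labelled control (blue), with the mean and SD of each group beside the points. Gm28528 lies at 2.84 to 3.66 CPM in the cKO-labelled libraries and at 54.0 to 65.6 CPM in the control-labelled ones, while Six3, Six4 and Six5 overlap between the groups.

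The remaining Six-family genes were expressed at lower levels. Six2, a factor of nephron progenitors in the kidney and of craniofacial mesenchyme (ENSMUSG00000024134, chromosome 17, 85684277 to 85688274, minus strand), was at 5.95, 5.82 and 5.49 CPM in the cKO-labelled libraries, against 4.94, 4.51 and 5.02 CPM in the control-labelled ones. All 3 labelled cKO libraries were above all 3 control libraries, and the log2 fold change was 0.25 with a standard error of 0.14. Six4, a gene of the muscle programme (ENSMUSG00000034460, chromosome 12, 73099609 to 73113456, minus strand), ranged from 2.04 to 3.63 CPM in the cKO-labelled libraries, which enclosed the 2.85 to 3.20 CPM of the control-labelled ones. Its log2 fold change was -0.14 with a standard error of 0.20. Six5, which lies beside the myotonic dystrophy gene Dmpk (ENSMUSG00000040841, chromosome 7, 19094594 to 19098549, plus strand), was at 32.4 ± 1.53 CPM and 34.4 ± 2.09 CPM (SD, n = 3 each) in the cKO-labelled and control-labelled libraries. The groups overlapped, with a log2 fold change of -0.09 and a standard error of 0.07.

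The transcripts read from the opposite strand at the Six3 locus differed more than the coding genes. Six3os1 (ENSMUSG00000093460, chromosome 17, 85600651 to 85618398, minus strand) had more counts than any of the 5 Six-family coding genes, with 763, 690 and 722 CPM in the cKO-labelled libraries, against 978, 926 and 918 CPM in the control-labelled ones. The 2 groups were well apart, with a log2 fold change of -0.38 and a standard error of 0.05. Gm28528, annotated as an antisense gene (ENSMUSG00000099635, chromosome 17, 85619326 to 85621001, minus strand), had 85, 88 and 72 counts in the cKO-labelled libraries, against 1569, 1491 and 1280 counts in the control-labelled ones. Each of the cKO-labelled libraries lay far below each of the control-labelled ones. The means were 3.28 ± 0.41 CPM and 59.9 ± 5.84 CPM (SD, n = 3 each). As labelled, this is a log2 fold change of -4.19 (standard error 0.10), or 18.3-fold lower in the cKO-labelled libraries. The authors' deposited table gives the opposite direction, a log2 fold change of 4.27 for cKO against control. Which direction holds by genotype was not tested.

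All 7 members passed the filter on low counts. In the edgeR fit across 17275 genes, 0.781% of all genes passed an adjusted p of 0.05, and 0.486% of all genes did so with lower values in the cKO-labelled libraries. Among the members 2 did, Six3os1 and Gm28528, both lower, and since the members were proposed with these values known, nothing is read from this share. The groups did not overlap in CPM for 20.1% of all tested genes and for 4 of the 7 members, with 9.3% of all genes lower and 10.8% higher without overlap, against 2 and 2 of the members. The median log2 fold change of the members was -0.14, against 0.00 for all tested genes. Without the libraries labelled cKO 2 and control 2, the log2 fold changes were -4.27 for Gm28528, -0.35 for Six3os1, -0.21 for Six3, 0.10 for Six6, 0.20 for Six2 and -0.17 for Six5, and Gm28528 was the 1 member past the threshold. Six4 was then at 0.06, on the other side of 0, and it was also above 0, at 0.04, without the library labelled cKO 2 alone.

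At the Six3 locus the antisense transcripts lie head to tail. Gm28528 begins 167 bases past the RefSeq start of Six3 and ends 927 bases short of the 5′ end of Six3os1, which itself lies 2436 bases before the Six3 start. Of the 857 exon bases of Gm28528, 168 also lie in Six3 exons. The GENCODE gene of Six3 starts further upstream than the RefSeq start, at 85613608, within Six3os1. Of the 11884 exon bases of Six3os1, 106 also lie in Six3 exons. The kit was directional, but no source used here says whether counting used the strand. Reads in these stretches could be shared between Six3 and either antisense transcript. GENCODE also annotates 7 small RNAs on the strand of Six3, of which 6 lie wholly in exon bases of Six3os1. They had 6 to 87 counts per library, and together 282, 242 and 305 counts in the cKO-labelled libraries, against 308, 316 and 310 in the control-labelled ones. None passed the edgeR threshold, 1 had an unadjusted p under 0.05, and none passed with DESeq2. Gm27427, which shares 92 exon bases with Gm28528, had 30, 20 and 42 counts in the cKO-labelled libraries, against 46, 43 and 44 in the control-labelled ones.

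**Figure D2:**
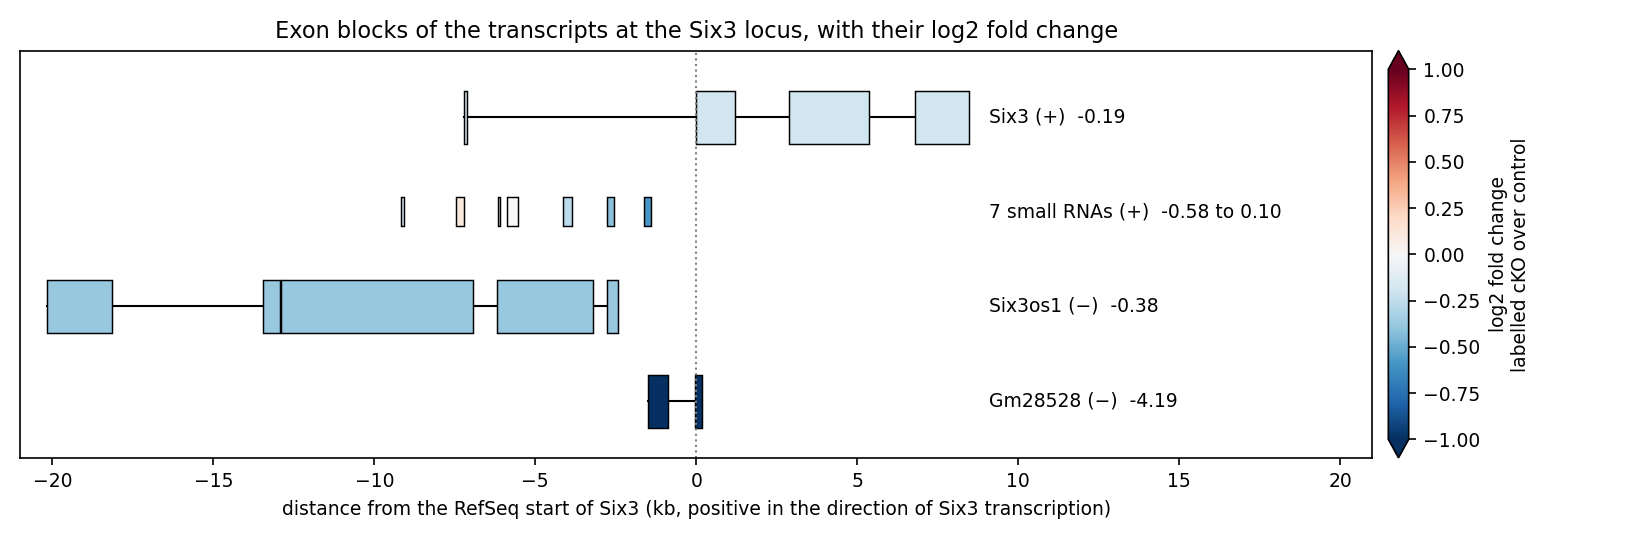
Exon blocks of Six3, of 7 annotated small RNAs, of Six3os1 and of Gm28528 by distance in kilobases from the RefSeq start of Six3 (dotted line), coloured by log2 fold change of labelled cKO over labelled control, with strand and value at the right. The darkest blocks are the pair of Gm28528 exons around the Six3 start, at -4.19, and colours are capped at a log2 fold change of 1 in either direction.

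Ratios within a library do not depend on how libraries are scaled. For every 100 counts of Six3 there were 162, 165 and 179 counts of Six3os1 in the cKO-labelled libraries, against 182, 200 and 193 in the control-labelled ones. The groups did not overlap, and the gap between them was small beside the spread within each. Gm28528 amounted to 0.705%, 0.875% and 0.703% of the Six3 count in the cKO-labelled libraries, against 12.2%, 13.0% and 11.3% in the control-labelled ones. Relative to Six3os1, Gm28528 was at 0.394% to 0.530% in the cKO-labelled libraries and at 5.88% to 6.71% in the control-labelled ones. These ratios come from the counts on which the members were selected and are no separate evidence.

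The authors' deposited table, named for cKO against control, gives all 7 members a sign opposite to that of the counts as labelled. In the authors' deposited table Gm28528 is at a log2 fold change of 4.27, Six3os1 at 0.39 and Six3 at 0.24, the 3 members that pass its adjusted p of 0.05. Of the genes with an adjusted p in that table, 8.97% pass, and 5 of the members have one. The authors' deposited table lists Six6 at -0.09, Six2 at -0.23, Six4 at 0.03 and Six5 at 0.13. With the sign turned round, these sizes differ from those of DESeq2 on the deposited counts by up to 0.11. For Foxp1 itself the authors' deposited table has a log2 fold change of -0.60 (DESeq2 adjusted p = 6.02e-11), lower in cKO, against 0.65 from the counts as labelled (standard error 0.07). In each source, Gm28528, Six3os1 and Six3 thus have the sign opposite to that of Foxp1. With the groups of labels exchanged, the counts would have the signs of the authors' deposited table for all 7 members and for Foxp1. Which source has the true direction was not tested.

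**Figure D3:**
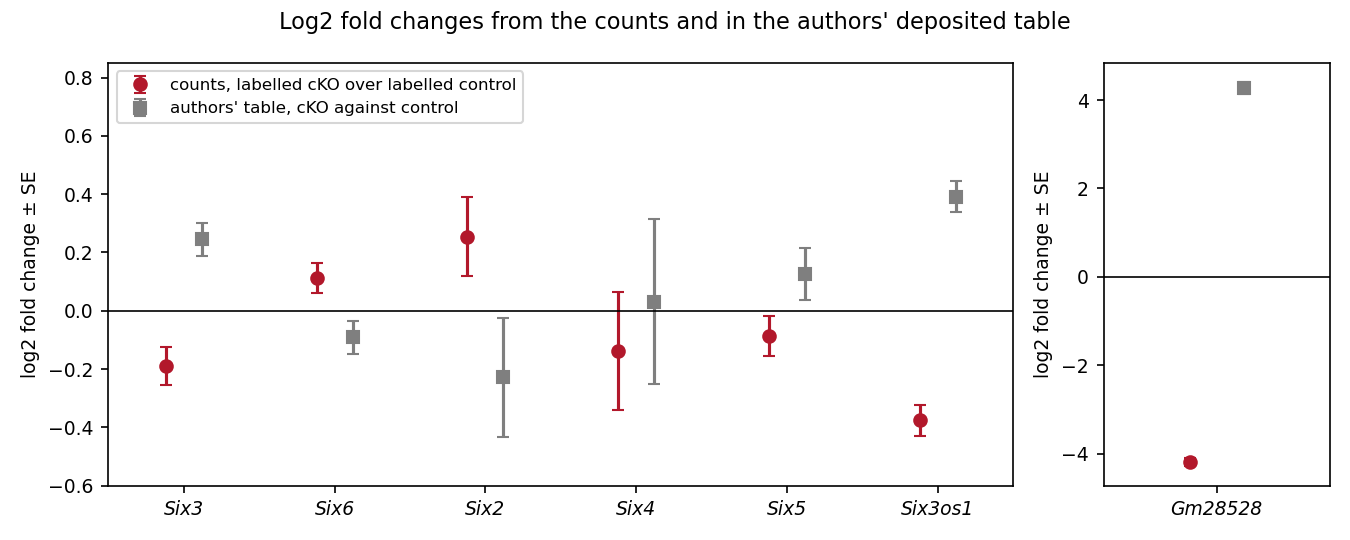
Log2 fold change with its standard error for each member, from the counts as labelled Foxp1 cKO over labelled control (red circles) and from the authors' deposited table as cKO against control (grey squares), with Gm28528 on its own axis. The pairs lie on opposite sides of 0 for all 7 members, at -4.19 and 4.27 for Gm28528.

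Levels between genes were compared per exon length, as FPKM (counts scaled to summed exon length and to library size). Six3 led with 84.8 ± 8.67 FPKM (SD, n = 6), followed by Six3os1 with 70.1 ± 10.3, Six6 with 50.6 ± 2.72, Gm28528 with 36.9 ± 36.4, Six5 with 11.1 ± 0.66, Six2 with 2.50 ± 0.26 and Six4 with 0.27 ± 0.05 FPKM. The order of 4 of the 6 neighbouring pairs held in every library (Six3 over Six3os1, Six3os1 over Six6, Six5 over Six2 and Six2 over Six4). Each had an exact two-sided sign-flip permutation p of 0.03125, the smallest that 6 libraries allow, and 0.0469 after Benjamini-Hochberg adjustment over the 6 pairs. The pairs with Gm28528 did not differ beyond their spread, with exact adjusted p of 0.30 against Six6 and 0.625 against Six5, and its place differed between the labels. In the cKO-labelled libraries it was at 3.82 ± 0.48 FPKM, below Six5 at 10.8 ± 0.51 FPKM (SD, n = 3 each). In the control-labelled ones it was at 69.9 ± 6.82 FPKM, above Six6 at 48.6 ± 0.44 FPKM (SD, n = 3 each). With the longest transcript of each gene as its length, Six3os1 came before Six3. Of the counts of the 5 Six-family genes, Six3 took 62.3% to 69.2% in the 6 libraries.

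**Figure D4:**
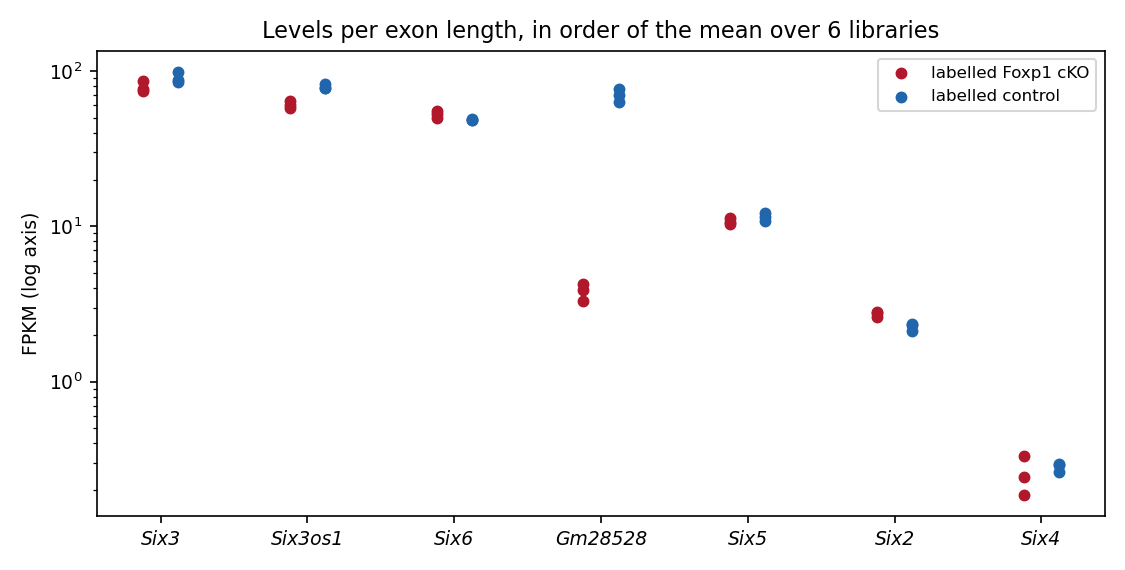
FPKM of each member on a log axis in the libraries labelled Foxp1 cKO (red) and labelled control (blue), ordered by the mean over 6 libraries. Six5, Six2 and Six4 form separate steps at means of 11.1, 2.50 and 0.27 FPKM, and Gm28528 spans from 3.32 to 76.6 FPKM.

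The spread between animals of 1 label is given as edgeR's estimate for each gene, which draws partly on other genes. It stands beside genes of like mean CPM over the 6 libraries. The biological coefficient of variation of Six6 was 6.20%, against a median of 6.18% for the 1220 genes within 1.5-fold of its level. Six3, at 7.75%, varied more than 89.9% of the genes of like level, and Gm28528, at 8.80%, more than 92.3%.

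Labelled sex was not used to choose the members and could be tested, as a label. Each labelled sex held 1 library whose Xist and Ddx3y counts were those of the other sex (control 2 and cKO 2). The fit to all libraries is therefore no comparison of the sexes. In an edgeR fit with labelled genotype as a covariate, 0.255% of all genes passed an adjusted p of 0.05 for labelled male over labelled female, and none of the 7 members did. One member, Six3, had an unadjusted p under 0.05, and DESeq2 called none. Six3 had a mean of 433 CPM in the libraries labelled male and 491 CPM in those labelled female, not adjusted for labelled genotype. In the edgeR fit, which adjusts for it, the log2 fold change of Six3 was -0.13 (standard error 0.05, edgeR adjusted p = 0.49). Gm28528 had a log2 fold change of -0.17 (standard error 0.09, edgeR adjusted p = 0.68), and Six6 had one of -0.04 (standard error 0.05, edgeR adjusted p = 0.89). Without the libraries labelled cKO 2 and control 2, where sex label and sex-linked genes matched in every library left, again none of the members passed. That fit held 1 library of each labelled sex within each labelled genotype, so no absence of a sex difference is read from it.

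The partners and developmental surroundings of Six-family proteins held 1 gene past the threshold. Of 15 cofactors and corepressors, all tested, 0 were called in either direction, and of 29 tested genes of eye and forebrain development, 0 were called higher and 1 lower in the cKO-labelled libraries by edgeR. At an unadjusted p under 0.05 the 2 lists had 4 genes higher and 7 lower, and DESeq2 called 1 higher and 3 lower. Over all 17275 tested genes, edgeR called 135 (0.781%), 2845 had an unadjusted p under 0.05, and DESeq2 called 514. The 2 lists together had a median log2 fold change of 0.00, as for all genes. The called gene was Zfhx4, a zinc finger homeobox gene, at 80.7, 79.2 and 82.8 CPM in the cKO-labelled libraries, against 105.5, 96.4 and 87.1 CPM in the control-labelled ones. The groups did not overlap, the labelled cKO libraries lay close together, and the log2 fold change was -0.25 with a standard error of 0.06 (edgeR adjusted p = 0.047). The Zfhx4 call was lost without any 1 of 5 libraries, at log2 fold changes of -0.27 to -0.18 (edgeR adjusted p = 0.058 without the library labelled cKO 1, 0.35 without cKO 2, 0.14 without cKO 3, 0.17 without control 1 and 0.14 without control 2). It was also lost with the exon length trend of each library removed, where the log2 value was -0.13 (edgeR adjusted p = 0.21). Leaving out both cKO 2 and control 2 lost it too, at -0.24 (edgeR adjusted p = 0.71). Upper quartile scaling, a filter at 1 CPM, limma-voom and labelled sex as a covariate gave adjusted p of 0.055, 0.066, 0.13 and 0.067. The Zfhx4 call was kept with RLE scaling (edgeR adjusted p = 0.048), with no filter on low counts (edgeR adjusted p = 9.89e-05), with DESeq2 (adjusted p = 0.012) and with control 3 left out (edgeR adjusted p = 0.0018). With the replicate number as a block, which does not pair the animals, it was also kept (edgeR adjusted p = 0.017).

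Pax6, the paired-box gene of eye identity, was at 658 ± 19.1 CPM and 659 ± 21.2 CPM (SD, n = 3 each) in the cKO-labelled and control-labelled libraries. Rax, another eye field gene, was at 551 ± 10.0 CPM and 553 ± 19.6 CPM, and the Wnt receptor gene Fzd5 at 544 ± 23.6 CPM and 588 ± 23.5 CPM (SD, n = 3 each). None of these 3 passed in edgeR, with adjusted p between 0.289 and 0.993. Eya3, a coactivator of Six-family proteins, was at 58.7 ± 1.45 CPM and 66.7 ± 1.53 CPM (SD, n = 3 each) in the cKO-labelled and control-labelled libraries, without overlap and with an edgeR adjusted p of 0.068. Vax2, a factor of the ventral retina, was at 80.2 ± 9.13 CPM and 67.1 ± 1.80 CPM (SD, n = 3 each), with an edgeR adjusted p of 0.079. DESeq2 called both Eya3 and Vax2, as did edgeR with no filter on low counts. Cdkn1b, the cell cycle inhibitor that Six6 is known to repress with Dach2, had a log2 fold change of 0.09 (standard error 0.05, edgeR adjusted p = 0.39).

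**Figure D5:**
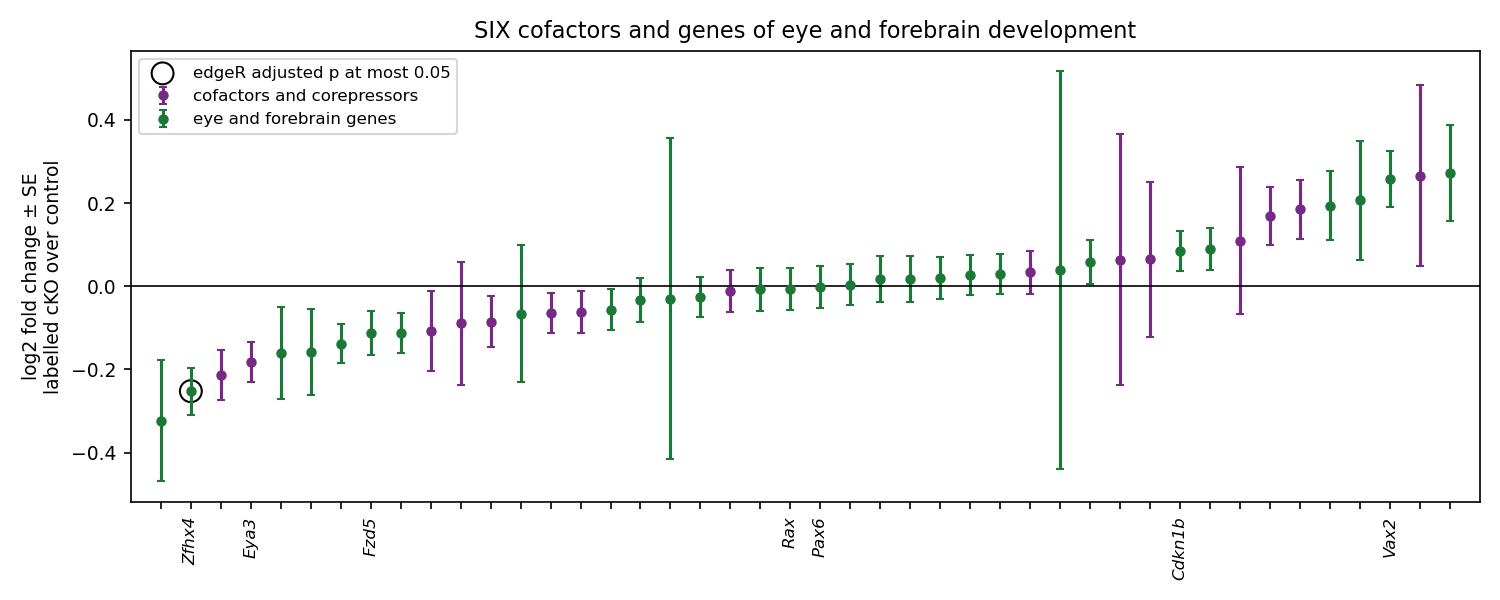
Log2 fold change with its standard error of labelled Foxp1 cKO over labelled control for 44 Six-family cofactors (purple) and genes of eye and forebrain development (green), in order of the value, with the genes described in the text named on the axis. Most lie within 0.2 of 0, and the circle marks Zfhx4 at -0.25, the 1 gene past the edgeR threshold.

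Cells other than retina can carry Six-family transcripts, so their markers are given beside the less abundant members. For Six2, the 12 markers of periocular mesenchyme summed to 90.6 to 166 CPM in the cKO-labelled libraries and 52.8 to 108 CPM in the control-labelled ones, with overlap. Col1a1, the most abundant of them, was lowest in the library labelled control 1, at 17.5 CPM. For Six4, the 13 muscle markers summed to 21.3 to 34.9 CPM in the cKO-labelled libraries and 31.9 to 77.1 CPM in the control-labelled ones, led by Ttn. The library labelled control 3 was the highest in muscle and lens markers, and its Six4 level, 3.20 CPM, was the highest of the control-labelled libraries and below the 3.63 CPM of the library labelled cKO 3. The 12 lens markers summed to 19.0 to 265 CPM in the cKO-labelled libraries and 64.4 to 950 CPM in the control-labelled ones. None of the markers of these lists was at 0 in all libraries. Of the 9 mesenchyme, 8 muscle and 10 lens markers that were tested, none passed the edgeR threshold. Their part in the levels of Six2, Six4 and Six5 was not tested. Amacrine and horizontal markers summed to 510 to 535 CPM in the cKO-labelled libraries and 583 to 630 CPM in the control-labelled ones, without overlap, and 2 of these 8 markers were called lower by edgeR. Of all tested genes, 0.486% were called lower by edgeR, and 9.3% were lower without overlap as single genes. The 5 endothelial markers summed to 297 to 306 CPM in the cKO-labelled libraries and 328 to 353 CPM in the control-labelled ones, also without overlap. Kdr alone made up most of these sums, at 283 to 291 CPM and 311 to 335 CPM. EdgeR called none of the 4 tested, and their median log2 fold change was -0.05. The part of either list in the differences at the Six3 locus was not tested.

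Within 300 kb of Six3, Six6 and Six5, 42 other genes were tested and edgeR called 0 of them, with 7 at an unadjusted p under 0.05 and 1 called by DESeq2. Over all 17275 tested genes, 2845 had an unadjusted p under 0.05 and DESeq2 called 514. Before Six3 the nearest coding gene, Camkmt, 155020 bases away, was at 9.87 ± 0.33 CPM and 9.90 ± 0.27 CPM (SD, n = 3 each) in the cKO-labelled and control-labelled libraries. Six2, on the other side, lies 54974 bases past Six3. At Six6, the gene 4930447C04Rik is read from the opposite strand and shares 192 exon bases with it. It was at 10.8 ± 1.49 CPM and 8.62 ± 0.50 CPM (SD, n = 3 each) in the cKO-labelled and control-labelled libraries, with an edgeR adjusted p of 0.14, on the same side as Six6. The noncoding gene Gm26709, 908 bases past Six6, was at 34.7 ± 1.06 CPM and 33.6 ± 1.46 CPM (SD, n = 3 each). Beside Six5, Dmpk, which ends 773 bases before it, was at 21.98 ± 1.76 CPM and 25.9 ± 2.13 CPM (SD, n = 3 each), with an edgeR adjusted p of 0.14. Gm4969, on the other side of Six5, had a log2 fold change of -0.10 (standard error 0.24).

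Members varied together in part. Over the 6 libraries the log2 CPM of Six3 and Six3os1 had a Pearson r of 0.84, and the deviations from the group means an r of 0.83. Library 1 of each label was the highest of its group in both genes. Libraries 2 and 3 of each label ranked opposite ways for Six3 and Six3os1. Six3os1 and Gm28528 had an r of 0.97 over the libraries, and their deviations from the group means an r of 0.10, so their likeness was that of the difference between the labels. These are descriptions over 6 libraries that share a litter. Of 10426 genes with at least 10 CPM, those most like Six3 over the 6 libraries were Ift172 (r = 0.997), Fzd5 (r = 0.995) and Rest (r = 0.994), and 550 genes had an r above 0.9. Those most like Six3os1 were Adcy5 (r = 0.998), Zfp697 (r = 0.996) and Rnf157 (r = 0.992), and 453 genes had an r above 0.9. Those most like Gm28528, added after the values were seen, were Cacna1i, a calcium channel gene on chromosome 15 (r = 0.999), Zfp169 (r = 0.997) and Axin2 (r = 0.996). For Gm28528, 255 genes had an r above 0.9. The log2 fold changes of Cacna1i, Zfp169 and Axin2 were -5.12, -0.19 and -0.33, so a high r did not mean a difference of like size. Cacna1i was at 5.87 ± 0.36 CPM and 204 ± 12.3 CPM (SD, n = 3 each) in the cKO-labelled and control-labelled libraries, and its deviations from the group means had an r of 0.83 with those of Gm28528.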

How the data were processed

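RNA from the retinas of 6 mouse embryos was sequenced as directional read pairs after ribosomal RNA depletion, per the labels' protocols. Named were DESeq2 1.32.0, featureCounts 1.5.1, STAR 2.7.6a, cutadapt 2.8 and the mm10 build, per the submitters' processing notes; no settings or strand options are given there. The authors deposited raw counts per gene and, per the file headers, a table with a mean normalized count (signal), a score (the test statistic), log2 fold changes and their standard errors, and raw and adjusted p-values. Count columns were matched to samples by the labels' descriptions, and gene names came from the authors' table by Ensembl identifier. Positions and exon lengths came from GENCODE M21 (mm10), and 6 members had promoter windows in RefSeq.

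Counts were normalized by TMM, filtered with filterByExpr and fitted with robust quasi-likelihood in edgeR 4.0.16 (R 4.3.3), with genotype alone and a Benjamini-Hochberg threshold of 0.05 over 17275 genes. Depth was 23707761 to 25714620 counts per library. Standard errors came from fold changes and F statistics, and the correlations used log2 CPM with a prior count of 2. Level orders used log2(FPKM + 0.01). Replicates are separate animals, and no pair within a group was a duplicate (chi-square 7.39 to 12.5 per degree of freedom). The members and gene lists were chosen with earlier results of these data known. The text names all members, called or else most abundant list genes, nearest neighbours and the 3 genes most alike in pattern. Also named, after their values were seen, are Cacna1i, Zfp169, Axin2, Gm27427, Eya3, Vax2 and Cdkn1b. Not every gene that the rule names is reported here. Alternatives were RLE and upper quartile scaling, other filters, DESeq2 1.42.0, limma-voom (3.58.1), labelled sex, a replicate block, removal of each library's exon length trend (lowess, span 0.3) and omission of libraries.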

Additional observations from a re-analysis of the deposited data

How the results depend on the processing

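Six3os1, Gm28528, Six3 and Six5 were lower, and Six6 and Six2 higher, in the libraries labelled cKO under all 16 alternatives; Six4 was higher in 2 of them. Gm28528 passed the adjusted p of 0.05 in all 16, at log2 fold changes of -4.28 to -4.10, and Six3os1 in 15, at -0.41 to -0.29 over all 16. Six3 passed in 4 (no filter on low counts, DESeq2, the replicate block, and without the library labelled cKO 1), at -0.26 to -0.19 there and -0.26 to -0.12 over all 16. Without the libraries labelled cKO 2 and control 2, 1 member passed, Gm28528, and 9 genes in all. No alternative exchanged the groups of labels. Six3os1 has longer exons than 94.8% of tested genes, and with the exon length trend removed its log2 fold change was -0.29. The 135 genes called over all became 742 with no filter, 83 with a filter at 1 CPM, 514 with DESeq2, 13 with limma-voom and 38 with the length trend removed. They were 361, 19 and 27 without the library labelled cKO 1, 2 and 3, and 34, 21 and 778 without control 1, 2 and 3. The cofactor and eye gene lists had 0 calls with upper quartile scaling, the 1 CPM filter, limma-voom, labelled sex or the length correction. They also had 0 without the libraries labelled cKO 2 and control 2. There were 6 calls with no filter, 4 with DESeq2, and 0 to 3 with 1 library left out. For labelled sex, 44 genes became 108 without the libraries labelled cKO 2 and control 2, 91 with DESeq2 and 22 to 124 with 1 library left out. The order of levels exchanged 1 neighbouring pair with transcript lengths, 1 in the libraries labelled cKO alone and 1 in those labelled control alone. The cause was not tested. With the replicate number as a block, 1065 genes and 5 list genes were called. The numbers do not pair the animals: deviations of same-numbered libraries correlated at 0.09, -0.05 and 0.20, and the library labelled cKO 2 correlated best with control 1. At these depths, genes such as Six4, with 49 to 92 counts per library, leave a standard error of 0.20.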
